A study of Mus musculus with 2 samples.

Results

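The Zic family was examined in forebrain tissue of mouse embryos aged 15.5 days, while the cortex is still producing neurons. The members were chosen by name: Zic1, Zic2, Zic4 and Zic5, which are 4 of the 43346 mouse genes in the tables, together with their 19 annotated transcripts. There was 1 group: healthy embryos of strain B6NCrl, of mixed sex and pooled, with no mutation or treatment named. Replicate 2 held the forebrains of 62 embryos and replicate 1 those of 78, and each library was made from 10 ng of total RNA longer than 200 nucleotides. Replicate 2 had 35103430 estimated reads and replicate 1 had 38720511. There was 1 group of 2 pools, for which an exact two-sided sign-flip test cannot give a p below 0.5, so no test was run and differences between genes are given beside the SD over the libraries (mean ± SD, n = 2).

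Zic genes encode zinc finger transcription factors related to the GLI proteins of Hedgehog signalling and to odd-paired of Drosophila. In mammals, 4 of them lie as head-to-head pairs, Zic1 beside Zic4 and Zic2 beside Zic5, with the partners transcribed away from each other. They are known for roles at the dorsal midline of the nervous system: human ZIC2 is a holoprosencephaly gene, in which the forebrain fails to divide, and loss of human ZIC1 and ZIC4 accompanies Dandy-Walker malformation of the cerebellum. In the embryonic forebrain the family is known from the septum, the thalamus, the meninges and the cortical hem, a signalling centre at the medial edge of the cortex.

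The paralogs share a conserved zinc finger region, so their most alike coding stretch is shown first to make clear how far their reads can be told apart. It is the stretch of 90 bases within 1 coding exon of Zic1 whose best matches in the other 3 genes held the most identical bases, read from GENCODE M21 transcripts (GRCm38). Capitals mark the 73 bases that were the same in all 4 genes.
Zic1 coding (chr9:91364200-91364289, minus strand): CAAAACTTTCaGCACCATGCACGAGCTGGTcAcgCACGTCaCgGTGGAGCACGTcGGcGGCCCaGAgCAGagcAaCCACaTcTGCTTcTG
Zic4 coding (chr9:91379149-91379238, plus strand): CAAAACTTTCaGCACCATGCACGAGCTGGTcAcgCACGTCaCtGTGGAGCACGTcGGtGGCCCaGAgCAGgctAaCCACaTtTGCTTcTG
Zic2 coding (chr14:122476494-122476583, plus strand): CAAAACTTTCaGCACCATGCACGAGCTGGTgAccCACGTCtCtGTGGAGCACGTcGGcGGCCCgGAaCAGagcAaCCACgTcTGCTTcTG
Zic5 coding (chr14:122464056-122464145, minus strand): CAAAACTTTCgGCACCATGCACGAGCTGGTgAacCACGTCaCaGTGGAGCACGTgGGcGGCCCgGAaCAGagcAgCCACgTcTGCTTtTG
Zic1 matched Zic4 at 84 of these 90 bases and Zic2 at 83, and Zic2 matched Zic5 at 83. Zic4 and Zic5 were the least alike, with 74 identical bases. Even here no run of 50 bases was shared between any pair on the same strand, in the stretch or elsewhere in their annotated transcripts. Zic1 and Zic4 shared 14 runs of 50 bases on opposite strands, counted from every base, so that neighbouring runs overlap. Their annotated exons share 60 bases. The deposited posterior standard deviation of the reads per gene, which measures how uncertainly reads were assigned, was 0 for Zic1 and Zic2 in both libraries. It was 0.870 reads in replicate 2 and 0.510 in replicate 1 for Zic5, and 4.33 and 5.57 reads for Zic4. These values do not say which genes the uncertain reads were shared with, and need not reflect paralogs. Gm37477, which lies within Zic4 on the opposite strand, also had fractional estimates, at 29.54 reads in replicate 2 and 36.05 in replicate 1.

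The 250 bases upstream of the RefSeq starts are shown for the 3 members in the promoter table (RefSeq, GRCm38.p6), to set their composition and motifs beside the levels. Capitals mark CCAAT and GGGCGG on either strand.
Zic1 upstream (chr9:91365769-91366018, minus strand): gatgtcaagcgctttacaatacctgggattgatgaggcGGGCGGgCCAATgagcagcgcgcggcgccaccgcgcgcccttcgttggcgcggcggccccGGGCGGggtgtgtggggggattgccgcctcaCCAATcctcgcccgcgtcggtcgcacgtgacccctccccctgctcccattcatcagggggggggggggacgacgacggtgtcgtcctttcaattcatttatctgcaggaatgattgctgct
Zic4 upstream (chr9:91368722-91368971, plus strand): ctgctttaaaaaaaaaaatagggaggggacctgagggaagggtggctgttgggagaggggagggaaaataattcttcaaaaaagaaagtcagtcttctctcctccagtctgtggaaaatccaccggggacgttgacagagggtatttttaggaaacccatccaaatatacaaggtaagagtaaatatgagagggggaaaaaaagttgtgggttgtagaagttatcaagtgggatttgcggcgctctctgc
Zic5 upstream (chr14:122465659-122465908, minus strand): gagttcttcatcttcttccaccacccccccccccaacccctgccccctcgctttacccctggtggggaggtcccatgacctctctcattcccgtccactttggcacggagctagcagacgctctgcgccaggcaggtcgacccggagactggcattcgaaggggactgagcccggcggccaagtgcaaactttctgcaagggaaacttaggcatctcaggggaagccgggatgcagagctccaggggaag
The Zic1 window was the richest in G and C, at 66.0%, against 44.4% for Zic4 and 62.4% for Zic5, with a median of 52.4% over 32851 such windows. It held 27 CpG dinucleotides, 0.995 of the number its base composition gives, while Zic4 held 4 (0.376) and Zic5 held 11 (0.458). CCAAT and GGGCGG each occurred at 2 positions in the Zic1 window and at none in the others, and they were present in 33.9% and 32.7% of all windows. CACGTG occurred once upstream of Zic1 and in 6.02% of all windows. It is also a match to CANNTG, which each of the 3 windows held once and 66.2% of all windows held. TATAAA (12.4% of windows) and CAGCAGG, a core of motifs described for ZIC proteins (8.44%), were not among these letters on either strand. The Zic4 window belongs to the start of its transcript Zic4-204 and not to that of its most abundant transcript, described below.

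All 4 genes were expressed, and Zic4 stood above the others. TPM is the abundance of a gene's transcripts corrected for length and scaled to the same total over all entries in each library. Zic4 (ENSMUSG00000036972.10; chromosome 9, 91362413 to 91389348, plus strand, mm10, GENCODE M21 span) was at 38.0 TPM in replicate 2 and 45.3 in replicate 1, from 2228 and 2641 reads. Zic5 (ENSMUSG00000041703.7; chromosome 14, 122456795 to 122465677, minus strand), a member linked to neural crest and dorsal neural tube in the mouse, was at 12.5 TPM in replicate 2 and 11.8 in replicate 1, from 964 and 1045 reads. Zic4 exceeded Zic5 by log2 1.78 ± 0.24 (3.42-fold) as gene totals, by 1.44 ± 0.16 over coding transcripts alone and by 0.98 ± 0.01 (1.97-fold) over the most abundant transcript of each, all beyond the spread between the libraries.

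Zic1 (ENSMUSG00000032368.10; chromosome 9, 91358058 to 91365810, minus strand), known in the mouse for its role in cerebellar development, was at 8.11 TPM in replicate 2 and 8.0 in replicate 1, from 960 and 1031 reads. Zic2 (ENSMUSG00000061524.8; chromosome 14, 122475435 to 122479852, plus strand), the holoprosencephaly gene, was at 6.95 TPM in replicate 2 and 7.73 in replicate 1, from 338 and 414 reads. The order of levels was thus Zic4, Zic5, Zic1, Zic2 in each library. Zic5 lay above Zic1 by log2 0.59 ± 0.05 as gene totals and by 0.19 ± 0.02 over coding transcripts. Reads without length correction put it above Zic1 by only 0.01. The deposited intervals of their most abundant transcripts, Zic5-201 and Zic1-201, overlapped in replicate 2, at 8.32 to 9.55 against 7.38 to 8.37 TPM. They did not overlap in replicate 1, at 8.44 to 9.60 against 7.32 to 8.26. The lowest neighbours were close: Zic1 lay above Zic2 by log2 0.14 ± 0.12, and the deposited intervals of the level overlapped within each library, at 7.51 to 8.80 against 6.11 to 7.65 TPM in replicate 2 and 7.45 to 8.70 against 6.85 to 8.37 in replicate 1.

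**Figure D1:**
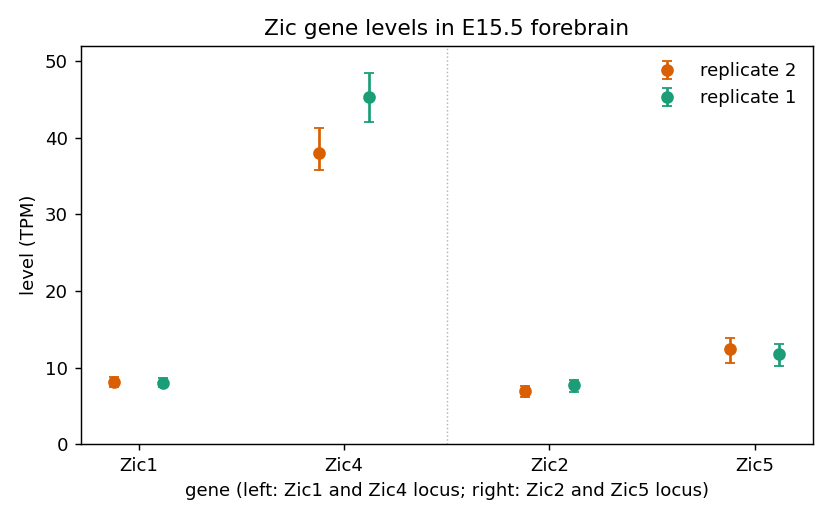
Level of each Zic gene in TPM, with 1 point per library and the deposited interval of the estimate as the bar (no confidence level is stated for it). Zic4 sits at 38.0 and 45.3 TPM, and the other 3 genes lie between 6.95 and 12.5 TPM.

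Among 21474 protein-coding genes, 60.6% reached 1 TPM in both libraries, and so did all 4 Zic genes. By mean level Zic4 ranked 4098, Zic5 8373, Zic1 9506 and Zic2 9742. The coding genes that reached 1 TPM had a median of 20.9 TPM and quartiles of 7.29 and 53.8 TPM, so Zic4 was above the median, Zic5 and Zic1 between the median and the lower quartile, and Zic2 at about the lower quartile. Of the 4-gene sum, Zic4 held 58.0% in replicate 2 and 62.2% in replicate 1. Zic5 held 19.0 and 16.2%, Zic1 12.4 and 11%, and Zic2 10.6% in both.

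Within each head-to-head pair one partner prevailed, and in TPM the imbalance was larger for Zic1 and Zic4. In reads without length correction the order of the pairs was the other way, with mean log2 ratios of -1.29 for Zic1 over Zic4 and -1.42 for Zic2 over Zic5. As gene totals, Zic1 was below Zic4 by a log2 ratio of -2.23 in replicate 2 and -2.50 in replicate 1 (mean -2.36 ± 0.19), which makes Zic4 5.15-fold higher. Zic2 was below Zic5 by -0.84 in replicate 2 and -0.61 in replicate 1 (-0.73 ± 0.17), which makes Zic5 1.65-fold higher. Both ratios exceeded the spread between the libraries. The locus sums were 46.1 TPM in replicate 2 and 53.3 in replicate 1 for Zic1 and Zic4, against 19.4 and 19.5 for Zic2 and Zic5, a log2 ratio of 1.35 ± 0.14 (2.55-fold). It was 1.02 ± 0.06 over coding transcripts and 0.69 ± 0.05 (1.61-fold) over the most abundant transcript of each gene, sets chosen after the values were seen.

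The size of both imbalances depended on which transcripts were counted. Protein-coding transcripts alone gave Zic1 8.11 TPM in replicate 2 and 8.0 in replicate 1, against 23.0 and 27.1 TPM for Zic4, a log2 ratio of -1.63 ± 0.18. They gave Zic2 6.62 and 7.49 TPM, against 9.17 and 9.24 TPM for Zic5, a log2 ratio of -0.39 ± 0.12. The most abundant transcript of each gene gave -1.17 ± 0.04 for Zic1 over Zic4, with Zic4-201 at 17.9 and 18.3 TPM. Zic4 and Zic5 stayed above their partners in each of these counts, by 2.25-fold to 5.15-fold and by 1.31-fold to 1.65-fold.

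Neither imbalance was unusual beside other neighbouring genes. Of 638 head-to-head pairs of protein-coding genes whose starts lay within 2 kb and which both reached 1 TPM, 34.5% had a ratio at least as large as that of Zic1 and Zic4 in either direction. For the ratio of Zic2 and Zic5 the share was 77.1%. The median pair differed 3.12-fold. The Zic pairs themselves are more widely spaced: the start of Zic1-201 lies 3.20 kb from that of Zic4-204 and 12.9 kb from that of Zic4-201, and the starts of Zic5-201 and Zic2-201 lie 9.76 kb apart.

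**Figure D2:**
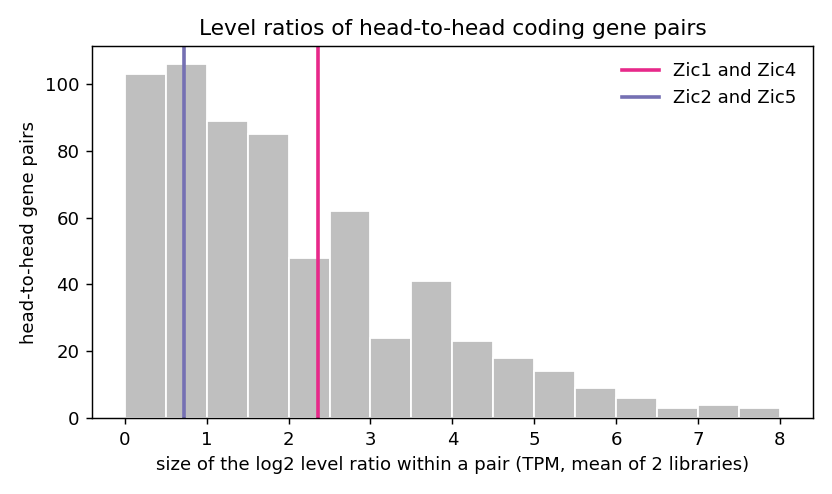
Number of head-to-head coding gene pairs by the size of the log2 ratio of their levels (TPM, mean of both libraries), in steps of 0.5, with vertical lines for the Zic pairs. The line for Zic1 and Zic4 at 2.36 has 34.5% of the pairs at or beyond it, and that for Zic2 and Zic5 at 0.73 has 77.1%.

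Zic4 differed from the other members in its spread over many transcripts. It has 12 annotated transcripts, against 3 for Zic1 and 2 each for Zic2 and Zic5. Its most abundant transcript, the coding Zic4-201, held 47.1% of the gene in replicate 2 and 40.4% in replicate 1. All reads of Zic1 were assigned to Zic1-201 (100% in both libraries), and Zic2-201 held 95.3 and 96.9% of Zic2. Zic5-201 held 73.5 and 78.5% of Zic5. The rest of Zic5 was Zic5-202, a transcript not annotated as coding, which rested on 43.0 reads in replicate 2 and 35.9 in replicate 1. Its deposited interval was wide, at 1.64 to 5.09 and 1.06 to 3.96 TPM. Being short, it took 26.5 and 21.5% of the gene's TPM from few reads.

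A main transcript under 50% of the gene was found in 24.5% of the 9532 coding genes that reached 1 TPM and have 2 or more transcripts. Only 8.99% of those genes have 12 transcripts or more, and in these the median main share was 40.7%, near that of Zic4. The 6 coding transcripts of Zic4 together held 60.5% of its TPM in replicate 2 and 59.9% in replicate 1. The 4 retained-intron transcripts held 19.4 and 18.3%, and the 2 processed transcripts held 20.0 and 21.8%. The labels call the material total RNA, and retained introns can come from unspliced RNA as well as from stable transcripts; which of these the reads came from was not tested.

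The Zic4 transcripts start in separate places relative to Zic1. Counted from the start of Zic1-201, 8 of them begin between 2.60 and 5.58 kb away, in the stretch that faces Zic1, and together they had 14 TPM in replicate 2 and 18.1 in replicate 1 (36.9 and 39.9% of the gene). The 3 that begin between 12.4 and 16.6 kb away, Zic4-205, Zic4-201 and Zic4-202, had 24.0 and 25.9 TPM (63.1 and 57.2%). The division into near and distant starts was made after the values were seen. Zic4-208 begins 3.36 kb inside the Zic1 gene on the other strand and had 0 reads in replicate 2 and 6.77 in replicate 1. Because the transcripts share exons, their separate levels are estimates of the deposited model: Zic4-204, a coding transcript with a near start, was at 2.61 TPM in replicate 2 with an interval from 0.844 to 3.95.

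**Figure D3:**
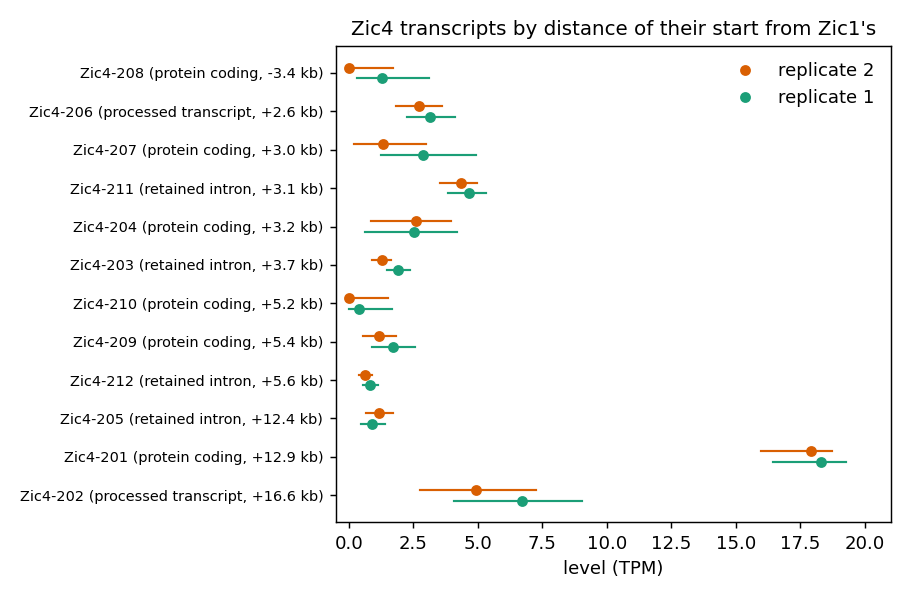
Level of each Zic4 transcript in TPM, with 1 point per library and the deposited interval as the line, ordered by the distance of its start from that of Zic1-201. Zic4-201 stands at 17.9 and 18.3 TPM, and Zic4-202 follows at 4.91 and 6.73 TPM.

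The nearest other genes were mostly low around Zic1 and Zic4 and mixed around Zic2 and Zic5. Within 500 kb of Zic1 and Zic4, 15 annotated genes were in the tables, none of them protein-coding in GENCODE M21, and 3 reached 1 TPM in both libraries. These were Gm37665, on 5 and 4 reads, the pseudogene Gm5620 at 1.95 TPM in replicate 2 and 1.63 in replicate 1, and Gm37477 at 1.75 and 1.96 TPM, which lies within Zic4 on the opposite strand. The noncoding Gm29478, downstream of Zic4, had 11 reads in replicate 2 and 25 in replicate 1. Each of these neighbours lay below Zic1 and Zic4 in both libraries.

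Around Zic2 and Zic5, 17 genes were in the tables and 5 reached 1 TPM. The noncoding 2610035F20Rik starts 236 bases from Zic2 and is transcribed away from it; it was at 2.15 TPM in replicate 2 and 2.63 in replicate 1, from 72 and 101 reads, below Zic2 in both libraries. Tm9sf2, a membrane protein gene, was at 89.0 and 95.8 TPM, above both Zic genes. Pcca, a subunit of propionyl-CoA carboxylase, was at 20.7 and 18.1 TPM, Clybl at 8.65 and 10.2 and Ggact at 4.70 and 5.60. No source used here states whether counting used strand, so reads of genes that overlap on opposite strands may not be told apart. Zic4 and Gm37477 overlap in this way, and both had fractional estimates. Zic4 had 2228.46 reads in replicate 2 and 2640.95 in replicate 1, and Gm37477 had 29.54 and 36.05. Their fractional parts make up whole reads in each library, as where reads are split between genes. The levels of Gm37477, Zic4 and Zic4-211, whose end overlaps Gm37477, are therefore not independent.

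By level in the 2 libraries alone, the coding genes most like each member were found by the distance of log2 TPM in both libraries, among 16295 genes. They were Pcdhga2, Nhlrc3 and Nsmce3 for Zic1 and Bcl9l, Ufsp1 and Doc2a for Zic2. For Zic4 they were Rragc, Taf13 and 1110032A03Rik, and for Zic5 they were Arrb1, Armt1 and Ddi2. All lay within a distance of 0.0310 of their Zic gene, and 2 libraries of 1 tissue carry no information on shared patterns.

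Of 9 genes in the list named for GLI and GLIS relatives of the family, not all of them relatives, 6 reached 1 TPM in both libraries. Sufu, an inhibitor of GLI proteins, was highest at 24.1 ± 0.88 TPM, and Nkd1, an antagonist of Wnt signalling, was at 16.5 ± 1.34. Gli3, the main GLI repressor of the developing brain, was at 12 ± 1.39 TPM and Glis2 at 10.9 ± 1.61, close to Zic5. Gli2, a GLI activator, was at 3.77 ± 0.93 and Mdfi, whose protein binds Zic proteins in the mouse, at 2.11 ± 0.19. Gli1, a transcriptional target of Hedgehog signalling, was at 0.850 TPM in replicate 2 and 0.970 in replicate 1, Glis1 at 1.05 and 0.790 and Glis3 at 0.620 and 0.990. Zic4 was thus above each of the 6 GLI and GLIS genes in both libraries.

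Of 15 genes linked to holoprosencephaly in humans, in the same disease group as ZIC2, 10 reached 1 TPM in both libraries. Fgfr1, a fibroblast growth factor receptor, was at 42.8 ± 3.8 TPM, the Hedgehog coreceptor Gas1 at 34.2 ± 4.07 and the Notch ligand Dll1 at 29.1 ± 0.68. All 10 lay in level from 4.70 TPM upwards, and Zic2 at 7.34 ± 0.55 was above 2 of them, Ptch1 (6.07 ± 0.71) and Disp1 (4.70 ± 0.21). Unlike Dll1, 3 other ligands were low, and like Ptch1 and Disp1 they are named here after their values were seen: Shh was at 0.380 TPM in replicate 2 and 0.670 in replicate 1, Fgf8 at 0.19 and 0.75 and Nodal at 0.160 and 0.300. Foxh1 was lowest, with 0 reads in replicate 2, where 3 reads would be 0.116 TPM, and 1 read in replicate 1.

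The Zic genes stayed well under 2-fold between the pools. With TMM scaling, 3 of 8 choroid plexus genes and 2 of 6 of neural crest and roof plate passed 2-fold downwards in replicate 2. The latter were Pax3, on 13 reads in replicate 2 and 48 in replicate 1, and Pax7, on 2 and 9. Of 8 genes of septum and rostral midline, Fgf17 passed it too, on 37 and 87 reads. Fgf8 did so among 13 holoprosencephaly genes with 10 reads or more in all, on 4 and 10. Of thalamus and habenula, 2 of 11 passed 2-fold upwards, Gpr151 on 59 and 30 reads and Chrnb4 on 33 and 16. Atoh1 also rose past 2-fold among 4 such genes of hindbrain and cerebellum, on 9 and 1 reads. Spike-in scaling moved the choroid plexus median from -1.0 to -0.80, so these counts hold for TMM scaling. Reads scaled by TMM factors gave log2 ratios of replicate 2 over replicate 1 of 0.04 for Zic1 (95% interval -0.09 to 0.17), 0.03 for Zic5 (-0.10 to 0.15), -0.10 for Zic4 (-0.19 to -0.02) and -0.15 for Zic2 (-0.36 to 0.06). The intervals are exact binomial ones and cover counting error only. None of the 4 reached 2-fold, as did 4.74% of 19165 genes with at least 10 reads in all and 0.146% of 10939 genes with a mean of 300 reads or more, a depth that all 4 Zic genes had. The median size of the log2 ratio in the deeper genes was 0.07, and 69.0% of them had a smaller one than Zic4 and 83.1% a smaller one than Zic2. Scaling by spike-ins, RNA added in known amounts, raised the ratio of all genes by a median of 0.20 and put Zic1 at 0.24, Zic5 at 0.22, Zic4 at 0.0942 and Zic2 at 0.0472, so the signs for Zic4 and Zic2 depend on the scaling. As deposited TPM, Zic4 had a log2 ratio of -0.25, and its effective length, an average over its transcripts, was 2727 nucleotides in replicate 2 and 2492 in replicate 1.

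Of all 19165 genes, 9577 were lower in replicate 2 with TMM scaling and 3254 (17.0%) with spike-in scaling, shares against which the counts of directions in the lists are to be read. Choroid plexus genes were lower in replicate 2 than in replicate 1 for 8 of 8 genes (median log2 ratio -1.0; 7 of 8 and -0.80 with spike-in scaling), led by the thyroid hormone carrier Ttr at 331 and 761 TPM, Folr1 at 15.6 and 25.2 and Kcne2 at 9.53 and 19.3, with Kl lowest at 0.230 and 0.260. Genes of neural crest and roof plate were lower in replicate 2 for 6 of 6 genes with 10 reads or more in all (median -0.67; 5 of 6 and -0.47 with spike-in scaling), and 3 of 7 reached 1 TPM. Msx1, a target of BMP signals, was at 11.3 and 17.1 TPM, Sox10 at 1.17 and 1.31, Snai2 at 1.04 and 1.42 and Pax7 lowest at 0.0200 and 0.0700. Thalamic and habenular genes were higher in replicate 2 for 10 of 11 genes (median 0.34; 11 of 11 and 0.54 with spike-in scaling), with Tcf7l2 at 107 and 78.0 TPM, Lhx9 at 20.3 and 16.7, Lef1 at 15.8 and 12.6 and Chrnb4 lowest at 0.45 and 0.20. These lists sum to 379 TPM in replicate 2 and 851 in replicate 1 for choroid plexus, 14.1 and 21.3 for neural crest and roof plate, and 177 and 134 for thalamus and habenula. In bulk tissue, fewer cells of a type and less RNA per cell cannot be told apart, and the part of these tissues in the Zic levels was not tested.

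Lists for other known sites of Zic expression had members on both sides of 0 with TMM scaling. For the septum and rostral midline the median log2 ratio was -0.30, with 6 of 8 genes lower in replicate 2 (-0.10 and 5 of 8 with spike-in scaling). All 8 reached 1 TPM, among them Etv5 at 20.4 and 22.6 TPM, Six3 at 14.9 and 18.0 and Fgf15 at 16.3 and 15.9, with Fgf17 lowest at 1.08 and 2.34. For the cortical hem and Cajal-Retzius cells, early neurons of the cortical surface, the median was -0.07 (0.13 with spike-in scaling). Of the 14 genes, 11 reached 1 TPM and 7 were lower in replicate 2 (6 with spike-in scaling). Calb2 was at 70.7 and 66.0 TPM, Cxcl12 at 51.9 and 48.6, Reln at 36.1 and 38.0 and Ebf3 lowest at 0.63 and 0.50. The hem genes Wnt3a (0.96 and 1.78 TPM), Rspo2 (3.88 and 6.11) and Rspo1 (2.24 and 3.73) were named after their values were seen. They had the lowest log2 ratios of this list, at -0.87, -0.63 and -0.61 with TMM scaling. In the same list Bmp4 was at 0.01, and the highest ratio was 0.35, for Ebf3. For meninges and mesenchyme the median was 0.07 (0.27 with spike-in scaling) and 12 of 14 genes reached 1 TPM, with Ptgds at 103 and 93.9 TPM, Col3a1 at 72.8 and 67.1, Igf2 at 53.4 and 49.0 and Twist1 lowest at 0.520 and 0.620. All 6 genes of the olfactory bulb interneuron lineage reached 1 TPM (median ratio -0.01, or 0.19 with spike-in scaling), among them Dlx2 at 56.0 TPM in both libraries and Etv1 at 29.0 and 29.8, with Tshz1 lowest at 10.0 and 10.6.

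Markers of the labelled tissue were present. All 7 telencephalic regulators reached 1 TPM, with Lhx2 at 91.9 and 75.6 TPM, Nr2f1 at 69.8 and 60.7 and Otx1 lowest at 8.74 and 8.10, and a median ratio of 0.22 (0.42 with spike-in scaling). Of 9 hindbrain and cerebellar genes, among them regulators of the cerebellum where Zic1 and Zic4 are best known, only Gbx2, which is also thalamic, reached 1 TPM in both libraries, at 12.6 and 7.79. Barhl1 was at 1.06 and 0.590 TPM, Egr2 at 0.240 in both, and En2 and Hoxa2 had 0 reads in both. There 3 reads would be 0.0406 TPM in replicate 2 and 0.0373 in replicate 1 for En2, and 0.0882 and 0.0810 for Hoxa2.

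**Figure D4:**
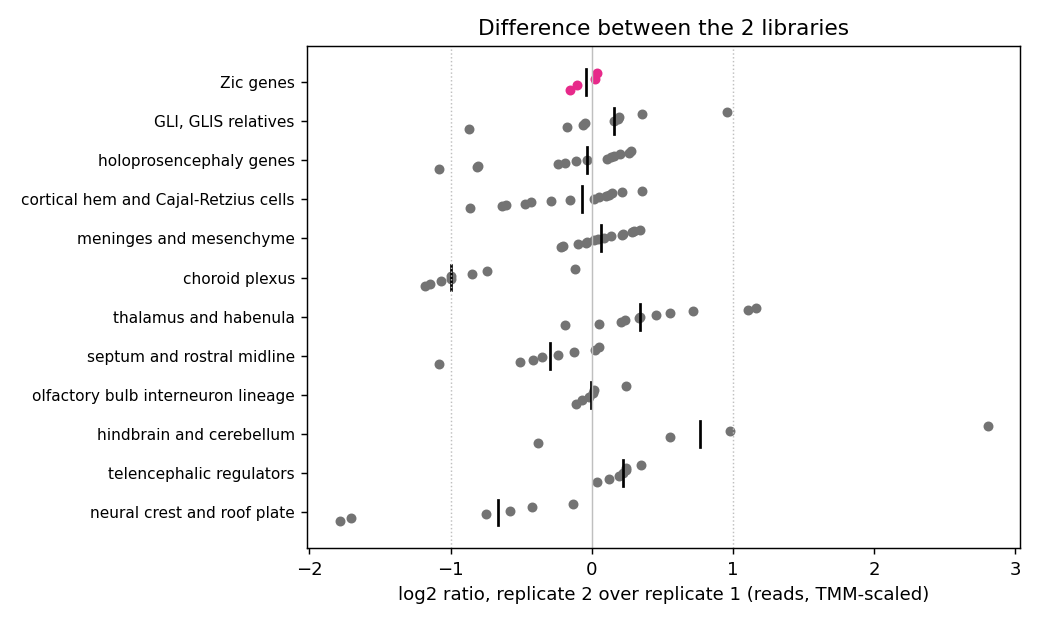
Log2 ratio of replicate 2 over replicate 1 (reads scaled by TMM factors) for the 4 Zic genes and for each gene of 11 lists with at least 10 reads in all, with the median as a bar and dotted lines at 2-fold. The Zic genes lie between -0.15 and 0.04 (0.0472 to 0.24 with spike-in scaling), while the choroid plexus list has its median at -1.0 (-0.80).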

How the data were processed

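Total RNA from 2 forebrain pools had been sequenced. Gene and transcript tables were used, which per the file headers and deposited notes came from transcriptome alignments to mm10 with GENCODE M4; no aligner, quantifier, version or strand setting is named there. In these deposited tables an expected count is an estimate of reads, split among the transcripts they match. Deposited TPM divides them by effective length and sets a common total, with 96 spike-ins counted in, and deposited FPKM divides by length and library size. The share of a transcript in its gene was deposited in percent. TPM of a gene with short transcripts therefore depends on how reads were split.

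Genes were matched by identifier without version to symbols and to GENCODE M21, whose models differ from M4. Ratios of levels were computed as log2 of TPM in each library, with no pseudocount. For the libraries, expected counts were rounded, genes reaching 10 reads over both were scaled by TMM in edgeR 4.0.16 (R 4.3.3) and 0.5 reads were added; this step was checked on simulated data. Alternatives used DESeq2 1.42.0, spike-in scaling, posterior means, FPKM and other thresholds. Tables were made with pandas 2.3.3, scipy 1.17.1 and numpy 2.4.6 under Python 3.11.15, and figures with matplotlib 3.10.9.

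The members and lists were chosen with earlier results of these data known. Named were all members and their transcripts, genes starting within 500 kb of either locus, the 3 coding genes nearest in level to each, and of each list the 3 highest and the lowest (all of the GLI and GLIS list). A further gene of the family and some list members are not reported here.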

Additional observations from a re-analysis of the deposited data

How the results depend on the processing

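No paired analysis was possible because there was 1 group, and a ratio of the libraries has no value without either one. Without replicate 1 or 2 in turn, levels were 8.0 to 8.11 TPM (Zic1), 6.95 to 7.73 (Zic2), 38.0 to 45.3 (Zic4) and 11.8 to 12.5 (Zic5). In FPKM the levels were 4.91, 4.47, 25.3 and 7.38, and in TPM rescaled to mouse genes Zic1 was at 8.53 and Zic5 at 12.8. The log2 ratio of Zic1 over Zic4 was -1.29 in reads without length correction, -1.63 over coding transcripts and -1.17 over the main transcripts; that of Zic2 over Zic5 was -1.42, -0.39 and -0.39, so in reads it was the larger. The locus sums gave 1.02 over coding and 0.69 over main transcripts. Main transcripts, coding transcripts for the locus sums and a pair distance of 10 kb were alternatives chosen after seeing the data.

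Spike-in scaling shifted all genes by a median log2 of 0.20 between the pools, and with them Zic2 to 0.0472, Zic4 to 0.0942, Zic1 to 0.24 and Zic5 to 0.22. The direction between the pools was thus reversed for Zic2 and Zic4, and relative to all genes it was not. TPM gave Zic4 -0.25. By posterior means Zic1-201 held 96.6%. Of head-to-head pairs, 115 of 495 (23.2%) were as uneven as Zic1 and Zic4 at a minimum of 5 TPM and 388 of 1042 (37.2%) within 10 kb, against 220 of 638 (34.5%). As uneven as Zic2 and Zic5 were 811 of 1042 (77.8%) within 10 kb, against 492 of 638 (77.1%). With 2 libraries, leaving 1 out moves a mean by less than the SD by construction, so those 22 values say nothing of stability. With the other settings, 33 values kept their direction and moved by no more than the SD, their counting interval or, for counts of pairs, 1.5 times. Another 28 values moved further and 2 reversed. The cause of these shifts was not tested beyond what each setting itself changes. Depth limits Zic2 most, with 338 and 414 reads.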
